A study of Mus musculus with 6 samples.

Results

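The structural genes of the sperm tail described here are 8 genes chosen by name for their products, in 2 tables of m6A peaks that compare germ cells lacking ClpP or ClpX with WT. Akap3, Akap4, Fsip2, Cabyr and Ropn1 encode proteins of the fibrous sheath or partners of it, Odf1 and Odf2 encode outer dense fibre proteins, and Smcp encodes the cysteine-rich protein of the mitochondrial capsule. All rows of both tables carrying one of these names were taken, which gave 71 of 47808 peak rows, 38 of 24127 in the ClpP table and 33 of 23681 in the ClpX table. Of the 8 genes, 7 carried at least 1 peak in each table. Ropn1, which encodes ropporin, a protein that binds A-kinase anchoring proteins, had 0 peaks in both.

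The mammalian sperm tail is built around the axoneme by accessory structures that form in spermatids. Outer dense fibres run along the midpiece and principal piece, a fibrous sheath encloses the principal piece, and a sheath of mitochondria wraps the midpiece. The fibrous sheath is a scaffold of A-kinase anchoring proteins that holds protein kinase A and glycolytic enzymes, and the genes for these structures are transcribed late in spermatogenesis, in many cases well before their mRNAs are translated. N6-methyladenosine (m6A) is an internal methyl mark of mRNA that is read by proteins acting on the decay, splicing and translation of the transcript.

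The material was male mouse germ cells labelled as spermatocytes, collected at postnatal day 35, and methylated RNA was captured with an antibody and sequenced. There were 3 genotypes: WT controls, a ClpP knockout (ClpP cKO) and a ClpX knockout (ClpX cKO), each deletion driven in male germ cells by Stra8-Cre, which becomes active in germ cells before meiosis. ClpX is the unfoldase and ClpP the peptidase of a protease in the mitochondrial matrix, and the study asked how mitochondria function without them. Each genotype gave 1 immunoprecipitated (IP) library and 1 input library, so no value has a replicate error and no test across replicates was possible. The sources used here do not say whether WT animals carried Stra8-Cre or whether animals were pooled.

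Each peak in the authors' deposited table has a fold enrichment, a ratio of IP to input given once for the comparison of 4 libraries, and a log2 fold change of enrichment between genotypes. A positive log2 fold change is read as more m6A enrichment in the knockout, a direction that rests on the knockout being named first in each table. Calls (higher or lower) are those with an authors' adjusted p of the genotype difference below 0.05, which compares these libraries and not the genotypes in general. The depth of the libraries is unknown, as the tables hold no read counts, and in these bulk samples fewer cells of a type and less RNA per cell cannot be told apart. Sites that are not listed as a peak are not analysed here, so a member without a listed peak may still be methylated.

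The cell label was set against marker genes, for which the tables show whether a peak is listed but not the RNA level. Spermatocyte markers had a peak for 10 of 12 genes in the ClpP table and 8 of 12 in the ClpX table, where Sycp3, Hormad1, Ccnb1ip1 and Ccna1 had none. Spermatid markers had one for 11 of 12 genes in each table, so peaks were listed on marker genes of the stage that builds the tail. Each table lists 1 set of peaks for its 4 libraries, so these peaks cannot be assigned to 1 library or cell type. Taking each gene at its peak of smallest p, 9 of those 11 spermatid genes were called higher and 0 lower in the ClpX comparison, where 21.7% of all genes were higher and 7.58% lower. In the ClpP comparison 2 of 11 were higher and 3 lower, where 9.5% of all genes were higher and 19.3% lower. The 3 lower were Tssk1, Tssk2 and Tssk6, which were among the 9 higher for ClpX and are also in the list of related genes below. For Tssk6 the calls were at different peaks that do not overlap, 69903251 to 69903518 for ClpP and 69902895 to 69903103 for ClpX. Spermatocyte markers had 3 higher and 0 lower for ClpP and 3 higher and 1 lower for ClpX. Spermatogonial markers had a peak for 7 of 8 genes in each table, with 1 higher and 1 lower for ClpP and 4 higher and 1 lower for ClpX. Sertoli cell markers had one for 7 of 8 in each, with 2 higher and 1 lower for ClpP and 2 higher and 2 lower for ClpX, and Amh had none in either. Leydig cell markers had peaks for 2 of 6 genes in the ClpP table, where Insl3 and Cyp17a1 had none, and for 5 of 6 in the ClpX table, where 3 were called higher, and markers of peritubular, endothelial and immune cells had them for 3 of 8 and 4 of 8, with 2 called higher in each. Their part in the members' values was not tested.

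In the ClpP table the calls on Fsip2 ran higher and most of those on the other members lower, a difference that was not tested. In the ClpX table the few Fsip2 calls were mixed in direction, while those on the other members were higher. In ClpP cKO 10 of its 20 peaks were called higher and 0 lower, whereas the 18 peaks of the other members included 3 called higher and 7 lower. In ClpX cKO 1 of the 18 Fsip2 peaks was called higher and 2 lower, and the 15 peaks of the other members included 7 called higher and 0 lower. Over all members 20 of 38 peaks were called in the ClpP comparison, where 19.6% of all peaks were called (6.74% higher and 12.8% lower), and 10 of 33 in the ClpX comparison, where 20.1% were (15.1% higher and 5.0% lower).

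**Figure D1:**
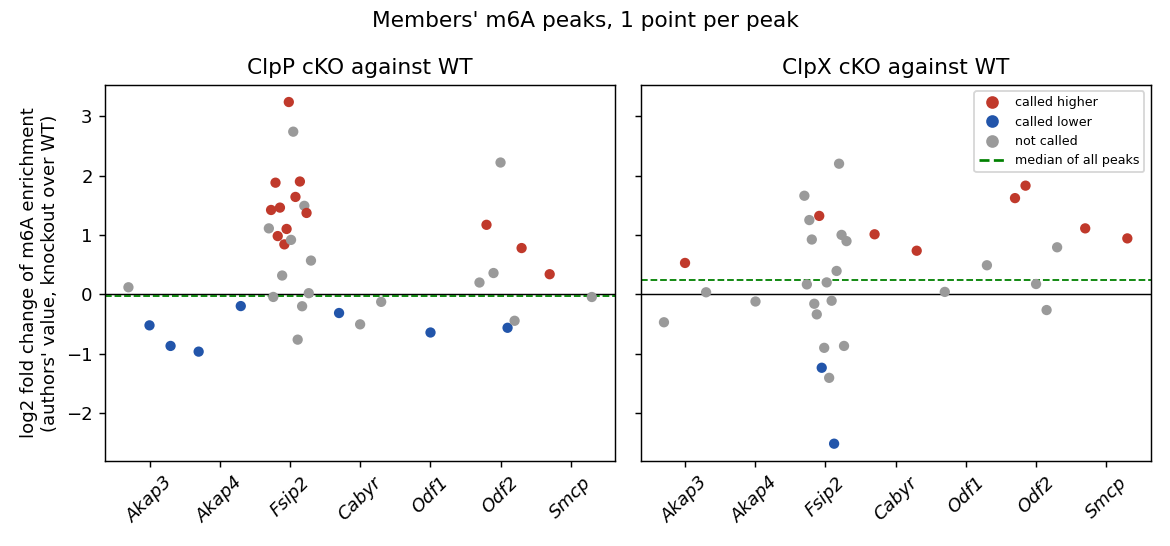
Log2 fold change of m6A enrichment (vertical axis, knockout over WT, the authors' values) for each peak of each member with a peak, in genomic order within a gene, with the ClpP comparison on the left and the ClpX comparison on the right. Points are red where called higher, blue where called lower and grey where not called, and the dashed line is the median of all peaks, -0.03 for ClpP and 0.24 for ClpX; Fsip2 has 10 red points in the left panel and 1 in the right one.

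Calls depend on how strongly a peak is supported. A peak p of at most 1e-100 was reached by 8 of 38 member peaks in the ClpP table and 6 of 33 in the ClpX table. Fsip2 peaks are outside this class, with a log10 peak p down to -96.1 (ClpP) and -52.5 (ClpX). Among all peaks with a peak p of at most 1e-100, 54.1% were called in the ClpP comparison (4.51% higher, 49.6% lower) and 48.0% in the ClpX comparison (31.2% higher, 16.7% lower). Of the members' peaks in that class, 6 of 8 were called in the ClpP comparison, 1 higher and 5 lower. In the ClpX comparison 3 of 6 were called, all 3 higher. Read against those shares, calls among the strongly supported member peaks were near the background in number. Those shares do not cover the other member peaks, which include all called Fsip2 peaks. The members' enrichment was low, with a median fold enrichment of 4.28 against 8.23 over all peaks in the ClpP table and 4.82 against 8.90 in the ClpX table.

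**Figure D2:**
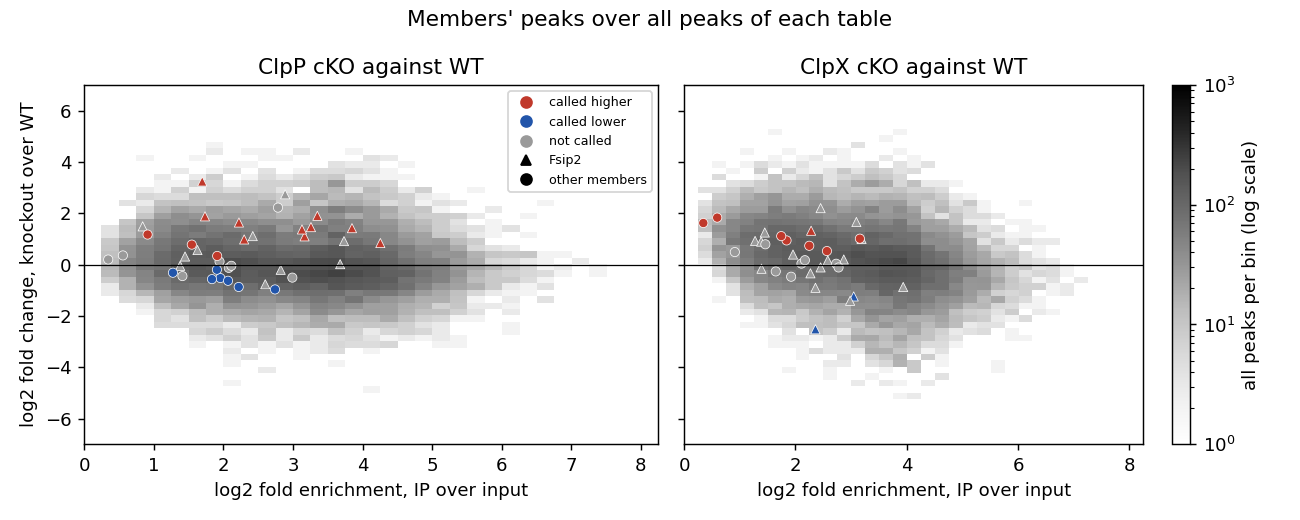
Log2 fold change between genotypes (vertical axis) against log2 fold enrichment of IP over input (horizontal axis) for all peaks of each table, as grey bins whose shade gives the number of peaks on a log scale, with the members' peaks on top as triangles for Fsip2 and circles for the other members. Most members lie left of the bulk of peaks, at a median fold enrichment of 4.28 (ClpP) and 4.82 (ClpX), while called Fsip2 peaks in the ClpP panel reach a fold enrichment of 19.1.

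Sequence near the gene starts is shown for 3 members because the windows of Akap3, Akap4 and Smcp hold the same octamer. RefSeq promoter windows on GRCm38.p6, 300 bases long and ending 50 bases after a start, were found for 6 of the 8 genes (10 windows in all). In the lines below, 30 bases of each are given 5′ to 3′ on the strand of the gene, with the octamer in capitals.
Akap3, chr6:126853057-126853086, plus strand: atggttgctatagaaacagTGATGTCActa
Akap4, chrX:7067461-7067490, plus strand: ttgttctctatagaaacagTGATGTCAtga
Smcp, chr3:92589039-92589068, minus strand: atcttgggggagagtattaTGATGTCAtaa
TGATGTCA, searched on both strands, was in 3 of the 10 member windows and in 3.62% of all 32851 windows. It resembles the cAMP response element TGACGTCA, through which the spermatid activator CREM works on many late genes; TGACGTCA itself was in 0 of the 10 member windows and in 1.79% of all. Akap3 and Akap4 share the octamer as the end of a longer identical run of 20 bases, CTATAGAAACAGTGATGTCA, which begins 34 bases upstream of the Akap3 start and 47 bases upstream of the Akap4 start and occurs in 2 of the 32851 windows. In Smcp the octamer lies downstream of the annotated start, within the first 50 transcribed bases. The octamer was chosen after these windows were read, and its presence is a description of the letters only.

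Akap3 and Akap4 encode the main anchoring proteins of the fibrous sheath, AKAP3 being laid down first and AKAP4 being the most abundant component of the finished sheath. Their peaks were called lower in ClpP cKO at 4 of 5 sites and called higher in ClpX cKO at 1 of 4. Akap3 (ENSMUSG00000030344, chromosome 6, plus strand, gene span 126853098 to 126874308) had 3 peaks in each table. The first began at the annotated start and covered 239 bases in 2 blocks, from 126853098 to 126856139. Its log2 fold change in the authors' deposited table was 0.12 for ClpP (adjusted p 0.581) and -0.47 for ClpX (adjusted p 0.483), so it was not called in either.

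The large Akap3 peaks of the ClpP table lay 11.43 and 12.98 kb from the start and held 2202 of the 2441 bases covered by its Akap3 peaks. In the ClpP comparison the authors' deposited table gave -0.53 for the peak at 126864531 to 126865958 (1428 bases, fold enrichment 3.88, adjusted p 7.94e-21). The next peak, 126866077 to 126866850, had -0.87 in the authors' deposited table (774 bases, fold enrichment 4.66, adjusted p 2e-55). Both were called lower. The ClpX table extended the first of them upstream to 126860306 and gave it 0.53 (1518 bases, fold enrichment 5.92, adjusted p 2.24e-07), called higher, in the authors' deposited table. For the other, extended downstream to 126873981, the ClpX value in the authors' deposited table was 0.03 (adjusted p 0.569). The 2 tables therefore give the longest Akap3 peak calls of opposite direction against the same WT libraries.

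Akap4 (ENSMUSG00000050089, X chromosome, plus strand, gene span 7067515 to 7078609) was divided differently in the 2 tables. In the ClpP table a peak over the upstream exons, 7067519 to 7073653 in 5 blocks and 480 bases, had -0.97 in the authors' deposited table (fold enrichment 6.69, adjusted p 6.03e-05). A longer one, 7073713 to 7077573 with 1889 bases, had -0.20 in the authors' deposited table (fold enrichment 3.75, adjusted p 5.89e-06). Both were called lower, with the larger value at the shorter one. The ClpX table listed the same stretch as 1 peak of 2428 bases in 6 blocks with -0.11 in the authors' deposited table (fold enrichment 6.84, adjusted p 0.138), not called.

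The first 50 transcribed bases of Akap4 overlap that first peak, so a stretch of the peak itself can be shown. It holds AGAC, 1 of the 2 four-base cores (AGAC and GGAC) searched on the gene strand as common forms of the DRACH m6A consensus, at chrX:7067539-7067562 on the plus strand, with AGAC in capitals.
Akap4 first peak: agggttgaagaaAGACctaacatc
AGAC or GGAC was in 33.3% of all windows of 50 transcribed bases and in 3 of the 10 member windows, those of Akap4, Fsip2 and Odf2. The earliest listed peaks of Fsip2 and Odf2 lay 5.87 and 12.13 kb from the annotated start.

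Fsip2 encodes a very large protein that binds AKAP4 and is needed for the fibrous sheath to form. Fsip2 (ENSMUSG00000075249, chromosome 2, plus strand, gene span 82943634 to 83008937) had the most peaks of any gene in the ClpP table, 20, and with 18 was second in the ClpX table, where the median gene had 1 peak. Of these peaks, 19 of 20 and 17 of 18 lay between 29.43 and 54.76 kb from the start of the 65.3 kb gene. The peaks covered 11868 bases in the ClpP table and 6047 in the ClpX table. Each table lists 1 set of peaks for its 4 libraries, so covered length cannot be assigned to 1 genotype.

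In ClpP cKO the log2 fold changes of the 20 Fsip2 peaks in the authors' deposited table ran from -0.77 to 3.24 with a median of 1.10, and 17 were above 0. The 10 called higher ran from 0.84 to 3.24 in the authors' deposited table and covered 8138 of the 11868 bases. The peak of smallest adjusted p was 82979239 to 82981069 (1831 bases, fold enrichment 9.57), at 1.46 (adjusted p 1.05e-08) in the authors' deposited table. Next by adjusted p came 82973061 to 82976239, with 1.42 (adjusted p 1.86e-06), and 82990833 to 82992003, with 1.37 (adjusted p 5.75e-06), in the authors' deposited table. The largest called value, 3.24, belonged to a short and weakly enriched peak of 181 bases at 82984834 to 82985014 (fold enrichment 3.24) in the authors' deposited table. At the other end, 82987503 to 82987923 had -0.77 in the authors' deposited table (adjusted p 0.346) and was not called. Calls higher were therefore spread over the gene from 82973061 to 82992003 and alternated with peaks that were not called.

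In ClpX cKO the 18 Fsip2 peaks had values from -2.52 to 2.20 with a median of 0.18 in the authors' deposited table, 10 above and 8 below 0. Called higher was 82980259 to 82980859 at 1.32 (adjusted p 0.0324), and called lower were 82981908 to 82982568 at -1.24 (adjusted p 0.0245) and 82989333 to 82989573 at -2.52 (adjusted p 0.00813), in the authors' deposited table. The remaining 15 were not called and ran from -1.41 to 2.20 in the authors' deposited table. The peak with the second of these values lay within a ClpP peak called higher, 82981878 to 82982928, which at 0.84 (adjusted p 0.0339) had the highest fold enrichment of any Fsip2 peak, 19.1, in the authors' deposited table. The ClpX values of Fsip2 covered a wider range than those of any other member in that comparison, and a single value for the gene depends on which of its peaks is read.

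**Figure D3:**
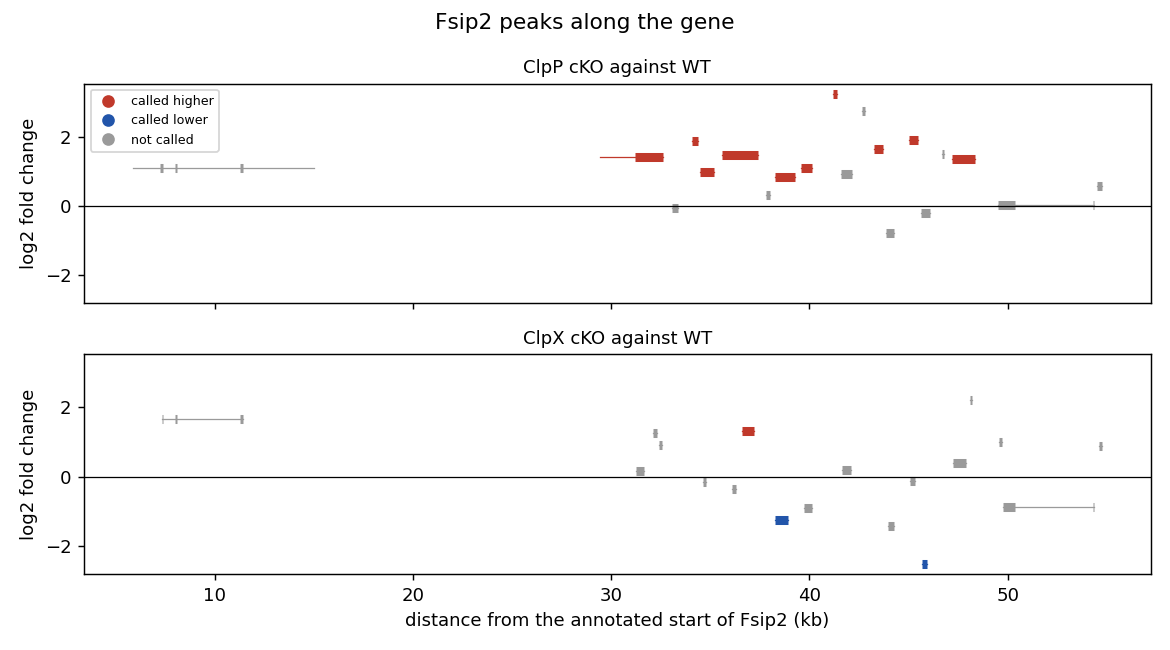
Fsip2 peaks by distance from the annotated gene start in kb (horizontal axis) and log2 fold change (vertical axis), with ClpP against WT above and ClpX against WT below. Thick bars are the blocks of a peak and thin lines the gaps between its blocks, red where called higher, blue where called lower and grey where not called; 10 red peaks in the upper panel contrast with 1 red and 2 blue in the lower.

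Cabyr encodes a calcium-binding, tyrosine-phosphorylated protein of the fibrous sheath. Cabyr (ENSMUSG00000024430, chromosome 18, plus strand, gene span 12740825 to 12755146) had 3 peaks in the ClpP table, all with values below 0, and 2 in the ClpX table, both called higher. For ClpP the authors' deposited table gave -0.32 at 12741391 to 12750929 (adjusted p 0.0363), called lower. It gave -0.51 at 12751138 to 12751644 (adjusted p 0.102) and -0.13 at 12751823 to 12755141 (adjusted p 0.239), which were not called, in the authors' deposited table. For ClpX the peak at 12744511 to 12751674, which covers 478 of the 508 bases of the first of these and all 507 of the second, had 1.01 (fold enrichment 8.92, adjusted p 1.62e-10) in the authors' deposited table. The last ClpX peak, 12751823 to 12755111, had 0.73 in the authors' deposited table (fold enrichment 4.75, adjusted p 6.17e-08). It ended 35 bases before the annotated gene end, and its ClpP counterpart 5 bases before it.

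Odf1 encodes a small protein that is a principal component of the outer dense fibres and links the sperm head to the tail. Odf1 (ENSMUSG00000061923, chromosome 15, plus strand, gene span 38219203 to 38226735) had a peak of 210 bases that began 60 bases from the annotated start, 38219263 to 38219472. In ClpP cKO it was called lower at -0.63 in the authors' deposited table (fold enrichment 4.19, adjusted p 0.000871). The ClpX table had the same site, 38219263 to 38219501, at 0.04 (adjusted p 0.603), and a second site near the gene end, 38226228 to 38226377, at 0.49 with a fold enrichment of 1.88 (adjusted p 0.0955), in the authors' deposited table. Neither was called.

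Odf2 encodes a coiled-coil protein found both in the outer dense fibres and, in other cell types, at the centrosome, so its transcript is not specific to the tail. Odf2 (ENSMUSG00000026790, chromosome 2, plus strand, gene span 29889014 to 29931746) had 7 peaks in the ClpP table, 2 called higher and 1 lower, and 5 in the ClpX table, 2 called higher and 0 lower. Its dominant site, with a log10 peak p of -780 (ClpP) and -744 (ClpX), lay 30.16 kb from the start in 5 blocks. That site, 29919176 to 29923635, was called lower in ClpP cKO at -0.57 (fold enrichment 3.57, adjusted p 3.16e-23) in the authors' deposited table. At 29919176 to 29923606 the ClpX value in the authors' deposited table was 0.17 (fold enrichment 4.50, adjusted p 0.155), not called.

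The Odf2 increases came from other and weaker sites. In ClpP cKO they were 29901470 to 29902277 at 1.17 (fold enrichment 1.88, adjusted p 0.00603) and the peak 629 bases before the gene end, 29930757 to 29931117, at 0.78 (fold enrichment 2.92, adjusted p 0.0186), in the authors' deposited table. In ClpX cKO they were 29901141 to 29901321 at 1.62 (fold enrichment 1.27, adjusted p 2.51e-15) and 29914380 to 29914753 at 1.83 (fold enrichment 1.51, adjusted p 1.41e-05) in the authors' deposited table. Those ClpX sites rank near the bottom of the table in enrichment, with 0.0549% and 0.600% of all peaks below them. The same sites had 0.20 and 0.36 in the ClpP comparison in the authors' deposited table and were not called. The remaining Odf2 peaks were not called: 29916270 to 29916390 had 2.22 in ClpP cKO (fold enrichment 6.89, adjusted p 0.514) in the authors' deposited table. The site at 29925917 had -0.45 for ClpP and -0.27 for ClpX, and the one near the gene end had 0.79 for ClpX (adjusted p 0.109), in the authors' deposited table. For this gene, then, the peak with the strongest support and the peaks with the largest values were different ones.

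Smcp encodes the protein that bundles the outer mitochondrial membranes of the sperm midpiece, and its mRNA is stored in spermatids before it is translated. Smcp (ENSMUSG00000074435, chromosome 3, minus strand, gene span 92583866 to 92589073) was the only member with a call higher and no call lower in both comparisons. The peak at the 3′ end, 92583867 to 92584220 (354 bases), had 0.34 in ClpP cKO in the authors' deposited table (fold enrichment 3.76, adjusted p 7.59e-05). In ClpX cKO the same site, 92583867 to 92584249, had 1.11 in the authors' deposited table (fold enrichment 3.35, adjusted p 2e-22). The upstream peak, which covers 3 blocks up to 76 bases from the annotated start, had -0.05 in ClpP cKO (adjusted p 0.54, not called) and 0.94 in ClpX cKO (adjusted p 1.05e-08) in the authors' deposited table.

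**Figure D4:**
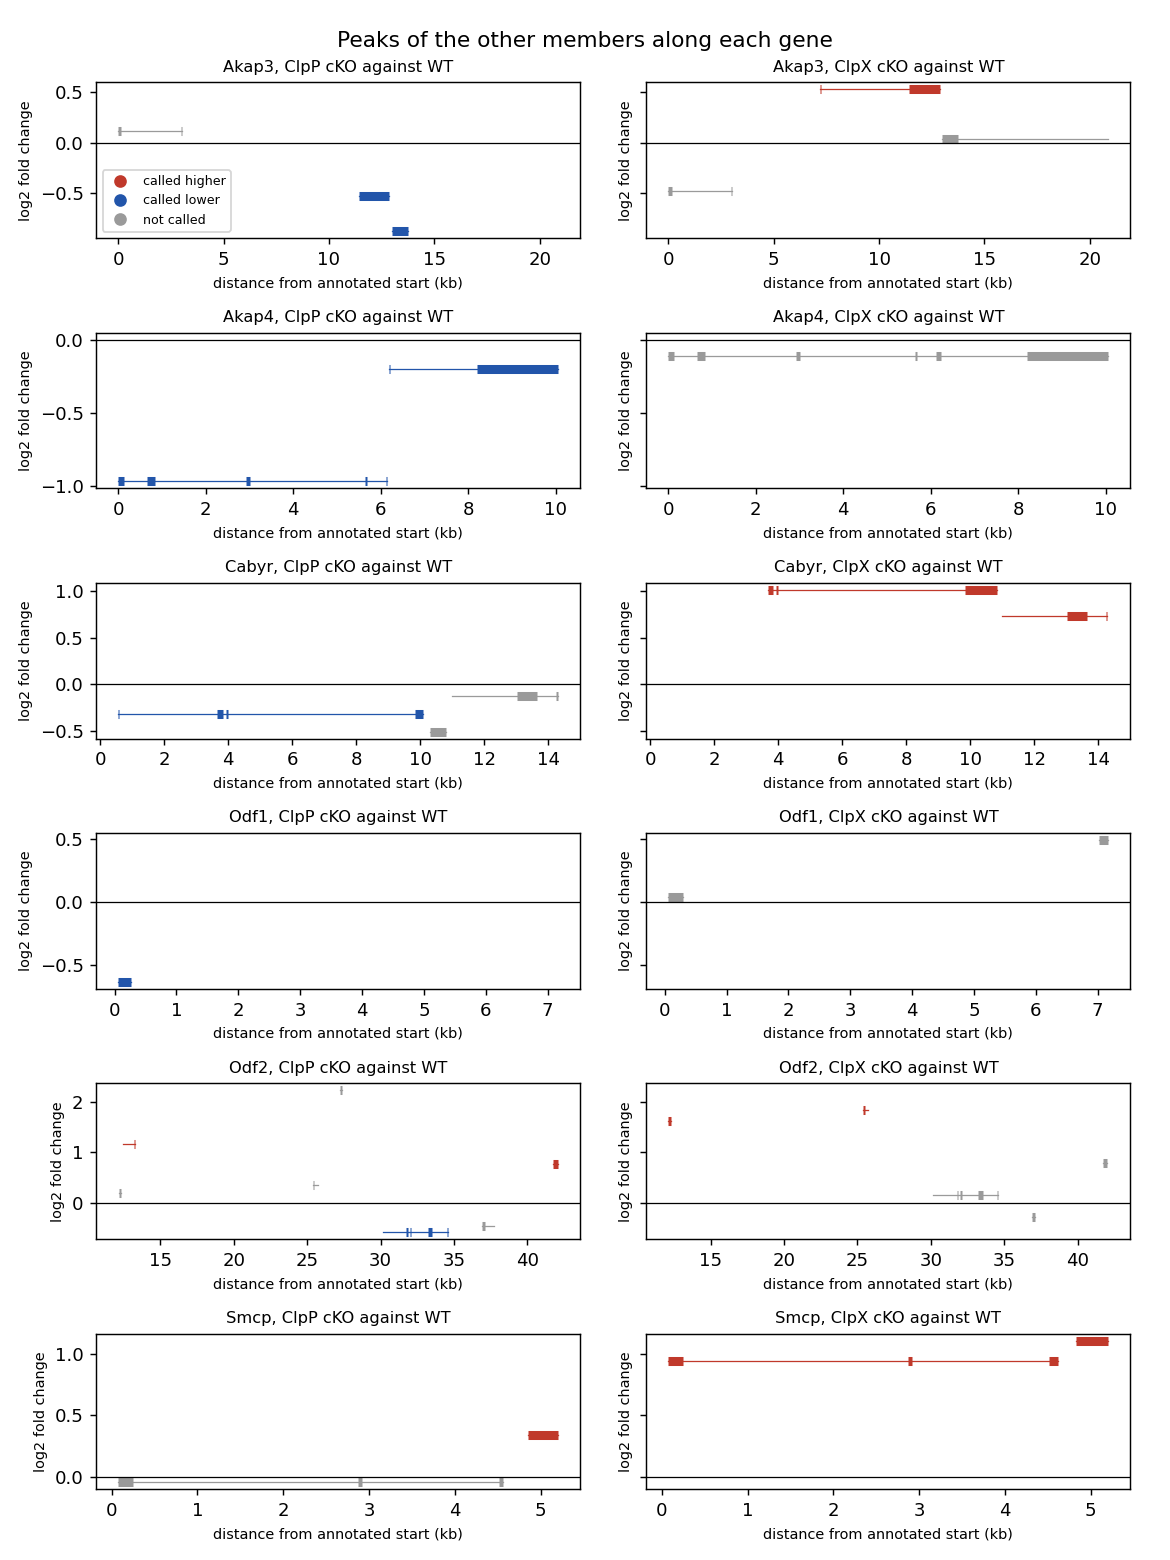
Peaks of Akap3, Akap4, Cabyr, Odf1, Odf2 and Smcp by distance from the annotated start of each gene in kb (horizontal axis) and log2 fold change (vertical axis, scaled per gene), with ClpP against WT on the left and ClpX against WT on the right. Thick bars are blocks and thin lines the gaps between them, red where called higher, blue where called lower and grey where not called; the long Akap3 peak is blue at -0.53 on the left and red at 0.53 on the right, and both Smcp and both Cabyr peaks are red on the right.

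Taken one value per gene, at the peak where the genotype difference had its smallest p, 5 members were lower (Akap3, Akap4, Cabyr, Odf1 and Odf2) and 2 higher (Fsip2 and Smcp) in ClpP cKO. The background for such gene values is 28.8% called, 9.5% higher and 19.3% lower. It is not matched for peak number, and a gene with more peaks has more chances of a call. The median gene had 1 peak, while Fsip2 had 20 and Odf2 7 in the ClpP table. The same limit holds for the gene counts of the marker and related lists. In ClpX cKO 4 were higher (Akap3, Cabyr, Odf2 and Smcp), 1 lower (Fsip2) and 2 not called (Akap4 and Odf1), with 29.3% of all genes called, 21.7% higher and 7.58% lower. The members' median was -0.32 for ClpP and 0.53 for ClpX, against -0.16 and 0.36 over all genes. Both comparisons use the same WT libraries, so their values are not independent of each other. These values depend on which peak of a gene is read. At the peak of highest fold enrichment the ClpX median was 0.0388, and with all peaks of a gene averaged it was 0.26. In ClpP cKO Odf2 had 0.53 as a mean over its peaks and 2.22, not called, at its peak of highest fold enrichment, where Smcp had -0.0471, also not called. Fsip2 in ClpX cKO had 0.14 as a mean over its peaks. At their peaks of highest fold enrichment in ClpX cKO, Akap3 had 0.0325 and Odf2 0.172, neither called. Cabyr had 1.01 and Smcp 0.941 there, both called higher.

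Positions near gene starts and ends were counted by gene and not by peak. A peak that reaches the start can also cover sequence far from it, as the ClpX peak of Akap4 does in 6 blocks. A gene with more or longer peaks is more likely to be counted, and the median gene had 1 peak. The shares over all genes are not matched for this. Akap3, Akap4, Odf1 and Smcp, 4 of 7 members, had a peak reaching within 100 bases of the annotated start in each table, against 11.1% of 12081 genes in the ClpP table and 13.1% of 11907 in the ClpX table. Within 100 bases of the annotated end the numbers were 2 of 7, Cabyr and Smcp, against 17.0% and 14.9% of genes. No member peak shared bases with a peak of another gene.

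Other genes of these structures were taken from a list of 48 symbols, some of them older and newer names of 1 gene, that covers sheath-bound enzymes, kinases, dense fibre and midpiece proteins. In ClpP cKO 32 of them had a peak, 6 of which were called higher and 14 lower, and the list's median was -0.28, against -0.16 over all genes, of which 9.5% were higher and 19.3% lower. Those of smallest adjusted p were Ldhc, the germline lactate dehydrogenase, at -1.10, the phosphoglycerate kinase Pgk2 at -0.81, and the testis-specific kinases Tssk1 at -0.78 and Tssk2 at -0.65, in the authors' deposited table. In ClpX cKO 33 had a peak, of which 17 were called higher and 4 lower, and the list's median was 0.66, against 0.36 over all genes; of all genes 21.7% were higher and 7.58% lower. There Ldhc was lower at -1.04, while Tcp11 at 1.30, the sperm thioredoxin Txndc2 at 3.59 and Tssk2 at 0.73 were higher, in the authors' deposited table. Tssk1 and Tssk2 are close paralogues, and reads of one may have been assigned to the other. With Tssk6 they also belong to the spermatid markers above, so the marker counts and the counts of this list are not separate.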

How the data were processed

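m6A-seq of 6 libraries was deposited as 2 tables of the authors' own comparisons, each of 4 libraries. Per the submitters' processing notes, the build was GRCm38 (mm10). Aligner, peak caller and depth scaling: not given in the sources used here. For each peak the authors deposited, per the file headers, its p-value, scores that are the log10 of p-values and adjusted p-values of the peak and of the difference, a fold enrichment (a linear ratio of IP to input) and a log2 fold change between genotypes. Starts were taken as counted from 0 and are printed counted from 1; against RefSeq starts the convention was not uniform, so a printed start may be off by 1 base.

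Members were rows whose gene name is in the list, and every peak was analysed; the called Fsip2 peaks of the ClpP table and uncalled Fsip2 peaks are given mostly by their range. Of the related genes, up to 4 per comparison were named, by adjusted p. Members and lists were chosen with earlier results of these data known. The Benjamini-Hochberg procedure applied to the deposited p-values (scipy 1.17.1), checked on simulated p-values first, came within 0.05 (log10) of the deposited adjusted value for 99.39% of ClpP and 99.32% of ClpX peaks. Peaks with an absolute log2 fold change under 0.05 had a median p of 0.546 and 0.570, above 0.5 as for a p counted on 1 side, so doubled p-values were tried. Gene spans and sequences are RefSeq's, matched by symbol. Alternatives were other thresholds, subtraction of the table median, other peaks per gene and leaving out Odf2 or Fsip2. The pairing of peaks between tables needed 1 shared base on the same strand, and each peak's largest overlap, where mutual, was counted as a pair.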

Additional observations from a re-analysis of the deposited data

Results flagged for a closer look

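Among the 27 best mutual pairs of overlapping peaks, those of 2 members included a pair called in opposite directions in the 2 comparisons, which share the WT libraries. How often this occurs over all peaks was not counted, so it cannot be read as particular to the members. Over all peaks 6.74% were called higher and 12.8% lower for ClpP, and 15.1% higher and 5.0% lower for ClpX. The long Akap3 peak on chromosome 6 had -0.53 in ClpP cKO (called lower) and 0.53 in ClpX cKO, where it was called higher, in the authors' deposited tables. The Fsip2 peak with the highest fold enrichment in the ClpP table had 0.84 in ClpP cKO (called higher), and the ClpX peak within it had -1.24 (called lower), in the authors' deposited table. Outside the best mutual pairs, the first Cabyr peak of the ClpP table had -0.32 (called lower), and the ClpX peak that covers 478 of its 508 bases had 1.01 (called higher), in the authors' deposited tables. The difference between the knockouts was not tested at these sites, and the stretches compared differ in length between the tables.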

How the results depend on the processing

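No paired analysis was possible because each group held 1 library. In ClpP cKO 20 of 38 member peaks were called, against 19.6% of all peaks. At an adjusted p under 0.01 there were 14 (13.7% of all peaks), and with p-values doubled 16 (16.4%). Where the log2 fold change also had to reach 1 in size there were 9 (9.15%), 9 higher and 0 lower. Without Fsip2 it was 10 of 18 (19.5%). In ClpX cKO 10 of 33 peaks were called (20.1% of all peaks), and 7 to 9 under the same alternatives. These included 7 of 15 without Fsip2 (20.1%), and 5 higher and 2 lower where the log2 fold change also had to reach 1 (13.7%). The members' median for ClpP, -0.32, was -0.51 at the peak of highest fold enrichment, -0.28 with the table median subtracted, -0.26 without Odf2 and -0.44 without Fsip2. For ClpX, 0.53 became 0.26 with all peaks of a gene averaged, 0.0388 at the peak of highest fold enrichment, 0.29 with the table median subtracted, 0.51 without Odf2 and 0.77 without Fsip2. Reversed values of single genes were Odf2 in ClpP cKO (0.53 as a mean, 2.22 at highest enrichment), Smcp in ClpP cKO (-0.0471 at highest enrichment) and Fsip2 in ClpX cKO (0.14 as a mean), since these settings read other peaks. Best mutual pairs of overlapping member peaks numbered 27, and 23 when 0.5 of each peak had to be shared. Leaving out Fsip2, doubling p-values, and calling peaks anew after subtracting the table median were chosen after seeing the data. Calling anew gave 19 member peaks in ClpP cKO, 13 higher and 6 lower, against 13 and 7 before (19.4% of all peaks). In ClpX cKO it gave 10, 7 higher and 3 lower, against 8 and 2 before (20% of all peaks). Without read counts, depth limits are unknown.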

Other observations

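Fsip1 and Klc3, of the related genes, fall outside the naming rule and were picked with their values in view. Fsip1, which encodes another protein that binds the fibrous sheath, had a highly enriched peak on chromosome 2 (118130572 to 118141070, fold enrichment 39.8) that was called lower in ClpP cKO at -1.25, and at 34.2-fold enrichment lower in ClpX cKO at -2.15, in the authors' deposited table. Klc3, a kinesin light chain that binds outer dense fibres in the midpiece, was called higher in ClpX cKO at 1.87 with a fold enrichment of 16.1 in the authors' deposited table. Txndc2, a thioredoxin of the fibrous sheath, was called higher in both comparisons, at 1.82 (fold enrichment 2.56) and 3.59 (3.94), in the authors' deposited table.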
